A study of Mus musculus with 11 samples.

Results

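The levels of 10 genes of the amino acid response and of serine and one-carbon synthesis were followed in the inguinal fat of mice with and without Raptor in adipocytes. The genes were Atf4, Asns, Psat1, Phgdh, Mthfd2, Shmt2, Trib3, Chac1, Ddit3 and Sesn2, taken as a list of genes known to respond to mTORC1 through the transcription factor ATF4. All 10 were found by symbol among 52282 annotated genes, and all 10 passed the expression filter that left 26960 genes for testing. Averaged over both treatments, 5 of the 10 had lower RNA levels in KO than in WT tissue, namely Sesn2, Phgdh, Asns, Psat1 and Trib3. Atf4 and Ddit3 did not pass the test, and Mthfd2 was higher in KO tissue in the rosiglitazone groups. The levels of the 5 lower genes followed those of mature adipocyte markers across libraries.

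mTORC1 is a kinase complex that promotes growth when amino acids and hormones are plentiful, and Raptor, encoded by Rptor, is the subunit that brings it its substrates. ATF4 is a transcription factor whose translation increases when a kinase of the integrated stress response phosphorylates eIF2, and mTORC1 raises ATF4 by a separate route. Its known targets make and import amino acids, and among them PHGDH, PSAT1, SHMT2 and MTHFD2 form a route that turns a glycolytic intermediate into serine, glycine and one-carbon units for nucleotide synthesis. White fat makes and releases amino acids and stores lipid, and its cells other than adipocytes also carry these enzymes.

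The samples were bulk RNA libraries of inguinal white adipose tissue, a subcutaneous depot, from C57BL6/J mice aged 16 weeks. KO mice carried floxed Raptor alleles and a Cre recombinase driven by the adiponectin promoter, which is active in adipocytes. WT mice were littermates with the floxed alleles and no Cre. From 8 weeks of age every mouse ate a high-fat diet for 8 weeks, with or without rosiglitazone, an agonist of the adipocyte nuclear receptor PPARG, given daily at a dose of 30 mg per kg. KO mice gave 3 libraries with rosiglitazone and 2 without, and WT mice gave 3 with and 3 without. In each of the 6 WT records, title and characteristic contradict each other on treatment. Groups follow the characteristic here, so each WT treatment group below carries that doubt. The difference between KO and WT averaged over both treatments is the same under either label, and it is therefore the leading comparison. Whether each library is a mouse of its own is not stated, and the p-values reflect only variation among these libraries, technical variation included.

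Library depth ran from 13035346 to 40925952 estimated reads. Protein-coding genes took 59 to 79.1% of the reads in KO libraries and 75.1 to 82.9% in WT libraries. Rptor itself, counted over the whole gene in a tissue of mixed cells, averaged 77.7 ± 14.5 CPM, read counts scaled to a common library size, in KO and 100.2 ± 21.4 CPM in WT libraries (SD, n = 5 and 6). The KO to WT ratio within treatments was 0.754, with a two-sided exact permutation p of 0.005, the smallest that 200 regroupings within treatments can give. With WT treatments taken from the titles, the ratio was the same and p was 0.09. The tissue differed in other ways between genotypes. Summed over 15 mature adipocyte markers, which include Adipoq and Plin1, KO libraries held 2725 to 8401 CPM and WT libraries 12790 to 43545 CPM, with no overlap and no marker at 0. In the genotype average 14 of these 15 markers were lower and 0 higher in KO, with a median log2 fold change of -2.57. Summed over 15 macrophage markers, KO libraries held 1417 to 4186 CPM and WT libraries 758 to 1526 CPM, and 14 of the 15 were higher in KO. Markers of progenitors and fibroblasts were higher for 4 of 10, and those of endothelium lower for 3 of 8. Among lymphoid markers, 0 higher and 1 lower of 12 for B cells, 0 of 14 for T and NK cells, and 2 higher of 7 tested for plasma cells passed the test. At an unadjusted p under 0.05, 1 T and NK cell marker was higher, and DESeq2 also gave 1 while limma-voom gave 0. The summed T and NK cell markers varied widely within groups, from 50.2 to 697 CPM in KO on diet and from 35.8 to 472 CPM in WT on diet. Skeletal muscle markers exceeded 0.5% of reads in replicate 2 of KO with rosiglitazone and replicate 2 of WT on diet, and replicate 3 of WT with rosiglitazone was just under, at 0.471%. Of the 12, 1 was lower in KO. Epithelial markers passed the test for 0 of 5 by edgeR, DESeq2 and limma-voom alike, also at an unadjusted p under 0.05. In bulk tissue, fewer cells of a type and less RNA per cell cannot be told apart.

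The promoters of the 5 lower genes are shown because ATF4 is known to act through short elements upstream of such genes. Each line gives the 250 bases that precede the RefSeq start site (GRCm38.p6), 5′ to 3′ on the gene's own strand. Capitals mark matches to the core of the C/EBP-ATF response element, searched as TGATGNAA, or to a second element, searched as TGNN followed directly by GCAATC and chosen after these sequences were read. Both were searched on either strand.
Sesn2: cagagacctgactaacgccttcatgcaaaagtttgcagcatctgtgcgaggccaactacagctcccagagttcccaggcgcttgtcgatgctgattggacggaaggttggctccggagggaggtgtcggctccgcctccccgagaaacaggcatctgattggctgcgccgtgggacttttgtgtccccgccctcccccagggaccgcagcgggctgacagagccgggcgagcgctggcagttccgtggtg
Phgdh: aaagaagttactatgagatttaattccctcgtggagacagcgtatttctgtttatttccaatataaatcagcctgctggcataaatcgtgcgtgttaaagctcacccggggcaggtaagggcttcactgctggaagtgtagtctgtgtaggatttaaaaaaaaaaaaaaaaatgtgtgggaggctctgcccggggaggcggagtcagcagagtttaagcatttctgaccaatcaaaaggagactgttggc
Asns: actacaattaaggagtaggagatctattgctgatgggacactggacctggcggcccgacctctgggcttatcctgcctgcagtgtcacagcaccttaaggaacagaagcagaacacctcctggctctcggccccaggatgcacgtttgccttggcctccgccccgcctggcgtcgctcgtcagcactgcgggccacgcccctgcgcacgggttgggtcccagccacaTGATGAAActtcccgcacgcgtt
Psat1: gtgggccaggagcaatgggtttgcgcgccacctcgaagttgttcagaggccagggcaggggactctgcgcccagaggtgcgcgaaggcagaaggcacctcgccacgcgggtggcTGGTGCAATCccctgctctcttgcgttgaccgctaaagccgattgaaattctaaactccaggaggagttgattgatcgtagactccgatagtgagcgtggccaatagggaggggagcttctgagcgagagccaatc
Trib3: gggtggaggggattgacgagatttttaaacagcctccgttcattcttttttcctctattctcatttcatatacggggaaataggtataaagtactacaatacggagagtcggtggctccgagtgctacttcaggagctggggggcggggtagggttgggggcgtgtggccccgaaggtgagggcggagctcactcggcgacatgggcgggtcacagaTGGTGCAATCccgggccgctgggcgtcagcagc

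These windows lie at chr4:132510457-132510706 for Sesn2, chr3:98339970-98340219 for Phgdh and chr6:7693210-7693459 for Asns. Those of Psat1 and Trib3 lie at chr19:15925060-15925309 and chr2:152344061-152344310, and all 5 are on the minus strand. In the GENCODE annotation of GRCm38, the whole genes are Sesn2 (chr4:132492032-132510501, minus strand), Phgdh (chr3:98313170-98339990, minus strand), Asns (chr6:7675169-7693254, minus strand), Psat1 (chr19:15904678-15947337, minus strand) and Trib3 (chr2:152337422-152344032, minus strand). The other 5 are Chac1 (chr2:119351229-119354381, plus strand), Atf4 (chr15:80255184-80257541, plus strand), Ddit3 (chr10:127290774-127296288, plus strand), Shmt2 (chr10:127517123-127522444, minus strand) and Mthfd2 (chr6:83305691-83325908, minus strand). Over windows from 250 bases before to 50 after the start site, the 10 genes had 11 windows, since Psat1 has 2 start sites. The core element was found in 3 of the 11, beginning 23 bases before the start of Asns, 193 before that of Chac1 and, on the minus strand of the gene and outside the bases shown, 15 after that of Trib3. The match in Chac1 was also on the minus strand. It was present in 3.97% of all 32851 promoter windows. The second element was found in Psat1 at 136, Trib3 at 33 and Chac1 at 250 bases before the start, and in 0.46% of all windows. Since it was chosen after these sequences were read, its count among them cannot be weighed against that share. The windows of Sesn2 and Phgdh, the genes with the largest differences, held neither element. The other window of Psat1 also held neither. Its bases before the start site, at chr19:15924623-15924872, are not shown above. The 2 searches overlapped at no site in the windows that hold both. A match describes letters in a window and not a bound site.

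Sesn2 encodes sestrin 2, which binds leucine and restrains mTORC1 through GATOR2 when leucine is scarce. It measured 8.73, 9.64 and 9.71 CPM in KO libraries with rosiglitazone and 8.62 and 6.99 CPM in KO libraries on diet. WT libraries held 44.1, 70.7 and 42.0 CPM with rosiglitazone and 64.9, 35.0 and 22.4 CPM on diet. Every KO library lay below every WT library, and the KO libraries were far closer to each other than the WT libraries were. The average log2 fold change was -2.43 ± 0.28 (SE), or 5.41-fold lower in KO, with an adjusted p of 0.00138 by edgeR's quasi-likelihood test. It stayed past the threshold in each of 11 fits that left out 1 library, with log2 fold changes from -2.58 to -2.18.

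Phgdh encodes phosphoglycerate dehydrogenase, the first enzyme of serine synthesis. Its CPM values were 37.8, 31.5 and 31.6 in KO with rosiglitazone and 43.8 and 41.1 in KO on diet, against 205, 254 and 212 in WT with rosiglitazone and 372, 129 and 99.2 in WT on diet. The genotypes did not overlap, and replicate 1 of WT on diet was the highest library. Phgdh fell by 2.49 ± 0.34 on the log2 scale, or 5.6-fold (adjusted p = 0.00231). It too was called in all 11 fits without 1 library. Sesn2 and Phgdh were the 2 of 10 genes with all KO libraries below all WT libraries, a pattern shown by 3.75% of all tested genes.

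Psat1 encodes phosphoserine aminotransferase, which takes the next step of serine synthesis. It measured 25.7, 29.1 and 35.5 CPM in KO with rosiglitazone and 27.7 and 10.5 CPM in KO on diet. WT libraries held 87.2, 113 and 97.2 CPM with rosiglitazone and 147, 50.5 and 34.7 CPM on diet. The genotypes did not overlap within either treatment, but the lowest WT library lay below the highest KO library. The log2 fold change was -1.87 ± 0.40 (adjusted p = 0.016). Without replicate 2 of KO on diet it was -1.61 with an adjusted p of 0.0655, and it was called in the other 10 such fits. Reads of Psat1 were divided mainly between 2 coding transcripts, Psat1-201 with 48.3% and Psat1-205 with 37.1%, over all libraries.

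Asns encodes asparagine synthetase, which makes asparagine from aspartate and glutamine and is a classical ATF4 target. In KO it measured 13, 13.3 and 11.1 CPM with rosiglitazone and 20.3 and 5.23 CPM on diet. In WT it measured 64.7, 82.1 and 67 CPM with rosiglitazone and 52.7, 22.8 and 20.2 CPM on diet. The rosiglitazone groups were well apart, whereas on diet 1 KO library lay just above the lowest WT library. Asns fell by 1.92 ± 0.37 on the log2 scale (adjusted p = 0.0106) and was called in all 11 fits without 1 library, with log2 fold changes from -2.57 to -1.59.

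Trib3 encodes a pseudokinase that binds ATF4 and dampens its activity. It had 4.36, 4.89 and 3.17 CPM in KO with rosiglitazone and 4.38 and 3.63 CPM in KO on diet, against 7.6, 10.8 and 7.86 CPM in WT with rosiglitazone and 10.5, 4.81 and 4.85 CPM in WT on diet. The groups did not overlap within a treatment, but over both treatments the 2 lowest WT libraries, on diet, lay below the highest KO library, with rosiglitazone. The log2 fold change was -0.92 ± 0.25 with an adjusted p of 0.0392, close to the threshold. It was called in 3 of 11 fits without 1 library, those without a WT library on diet, and in the other 8 its adjusted p was 0.0509 to 0.127. Psat1, Phgdh, Trib3 and Sesn2 were lower in KO without overlap in both treatments, as were 5.77% of all tested genes.

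Chac1 encodes an enzyme that degrades glutathione and is induced by ATF4. It measured 1.93, 14.4 and 2.68 CPM in KO with rosiglitazone, 3.89 and 1.08 CPM in KO on diet, 10.1, 12.7 and 28.7 CPM in WT with rosiglitazone, and 11.8, 12.0 and 6.31 CPM in WT on diet. Replicate 2 of KO with rosiglitazone, which is 1 of the libraries rich in muscle markers, was the sole KO library inside the WT range. The highest library, replicate 3 of WT with rosiglitazone, also held many muscle reads, and the part of muscle in these values was not tested. The log2 fold change was -1.73 ± 0.61 and did not pass the test (adjusted p = 0.0945). Without replicate 2 of KO with rosiglitazone it was -2.41, with an adjusted p of 0.0164.

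Atf4, the transcription factor itself, varied little. It measured 56.5, 54.9 and 48.5 CPM in KO with rosiglitazone and 54.1 and 38.7 CPM in KO on diet, against 61.0, 80.2 and 63.0 CPM in WT with rosiglitazone and 64.7, 43.9 and 41 CPM in WT on diet. The genotypes overlapped over all libraries, though not within the rosiglitazone groups, with a log2 fold change of -0.23 ± 0.16 (adjusted p = 0.364) and an interval of 2 SE from -0.55 to 0.09. ATF4 protein is set mainly by translation and was not measured here. Ddit3 encodes CHOP, a partner of ATF4 in the response to endoplasmic reticulum stress. It ranged from 7.07 to 9.46 CPM in KO and from 7.32 to 9.64 CPM in WT, with a log2 fold change of -0.02 ± 0.12 (adjusted p = 0.933) and an interval of 2 SE from -0.26 to 0.22. Of its reads, 43.4% were assigned to a transcript with a retained intron.

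Shmt2 and Mthfd2 encode mitochondrial enzymes that take a one-carbon unit from serine and carry it as folate. Shmt2 ranged from 13.9 to 19.3 CPM in KO and from 13.1 to 17.2 CPM in WT. Its log2 fold change was 0.20 ± 0.11 (adjusted p = 0.263), with an interval of 2 SE from -0.02 to 0.43. For Mthfd2 the order of the genotypes differed between the treatment groups, as these are given by the characteristic. It had 10.6, 11.1 and 14.7 CPM in KO with rosiglitazone and 5.91 and 8.43 CPM in KO on diet, against 5.08, 4.70 and 5.96 CPM in WT with rosiglitazone and 8.03, 11.5 and 10.4 CPM in WT on diet. The KO libraries with rosiglitazone were thus about level with WT on diet, and WT with rosiglitazone was lowest. Averaged over treatments the log2 fold change was 0.37 ± 0.16 (adjusted p = 0.163).

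**Figure D1:**
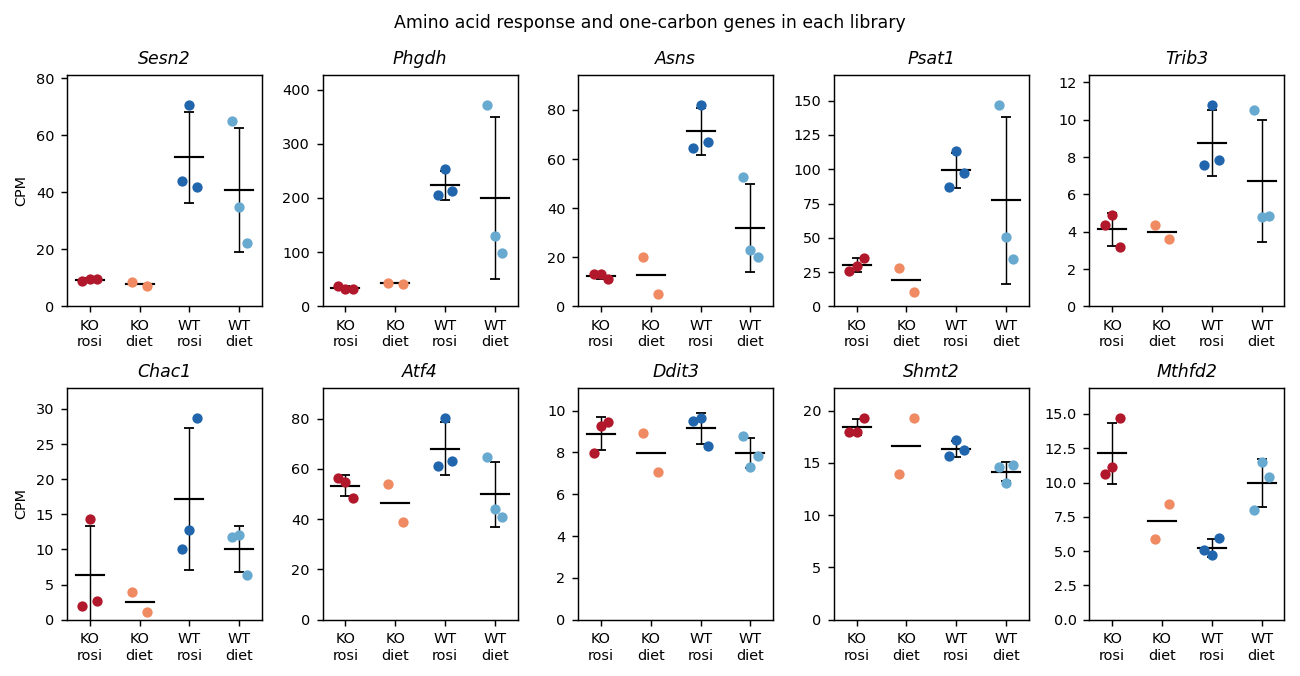
CPM (vertical axis, starting at 0) of each of the 10 genes in each library, by group; lines are means and bars SD, drawn for groups of 3. Every KO point of Sesn2 and Phgdh lies below every WT point, Ddit3 overlaps between all groups, and Mthfd2 is highest in KO with rosiglitazone (mean 12.1 CPM) and lowest in WT with rosiglitazone (mean 5.25 CPM).

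In all, 5 of the 10 genes were lower and 0 higher in KO in the genotype average, where 12.8% of all tested genes were called, 8.20% lower and 4.57% higher. At an unadjusted p under 0.05, 6 were lower and 1 higher, where 29.2% of all genes passed. DESeq2 called 6 lower and limma-voom 4 lower, and neither called any higher. The median log2 fold change of the 10 was -1.32, and that of all tested genes was 0.05. On the TPM scale, which divides by length and total, limma on log2(TPM + 1) gave a median of -0.09 for all genes and called 271 higher and 1730 lower, against 1232 higher and 2210 lower by edgeR. In the mice given rosiglitazone, where 15.0% of all genes were called, 9.50% lower and 5.47% higher, 3 of the 10 were lower and 1 higher in KO, and 31.3% of all genes had an unadjusted p under 0.05. The 3 lower genes were Phgdh (log2 fold change -2.73 ± 0.44, adjusted p = 0.0044), Asns (-2.51 ± 0.49, 0.0103) and Sesn2 (-2.48 ± 0.37, 0.00327). Asns lost its call without replicate 3 of KO with rosiglitazone (-2.44, adjusted p = 0.0517). DESeq2 and limma-voom each called 5 lower, these 3 with Psat1 and Trib3, and 1 higher. By edgeR Psat1 (-1.72 ± 0.52) and Trib3 (-1.08 ± 0.33) narrowly missed the threshold with adjusted p of 0.0507 and 0.0528. Without replicate 1 of WT on diet, which enters this contrast only through the shared estimate of spread, both passed (0.00637 and 0.00878).

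Mthfd2 was the gene higher in KO with rosiglitazone, by a log2 fold change of 1.21 ± 0.22 (2.31-fold, adjusted p = 0.00756), in all 11 fits without 1 library. On log2(TPM + 1), where the median of all genes was -0.30, it was 0.76 and did not pass (adjusted p = 0.185). With WT treatments from the titles it was 0.28 (0.574), so that this call rests on the treatment characteristic. Without overlap between the genotypes in the rosiglitazone groups, 6 genes were lower and 2 higher, where 24.7% and 23.5% of all genes did the same. On the diet alone, where 0.137% of all genes were called, 0.111% lower and 0.0260% higher, edgeR called 0 of the 10. Sesn2 (-2.39 ± 0.43, adjusted p = 0.0807), Phgdh (-2.24 ± 0.50, 0.151), Psat1 (-2.02 ± 0.61, 0.26) and Asns (-1.33 ± 0.55, 0.428) had an unadjusted p under 0.05, as did 10.5% of all genes. DESeq2 called 3 of the 10, Sesn2, Phgdh and Psat1, and limma-voom 0. Without replicate 1 of WT on diet, Sesn2 (-1.88, adjusted p = 0.0477) and Phgdh (-1.43, 0.0233) passed, and without replicate 3 of WT on diet Sesn2 passed (-2.68, 0.0333). On diet 5 of the 10 were lower without overlap, against 10.3% of all genes.

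**Figure D2:**
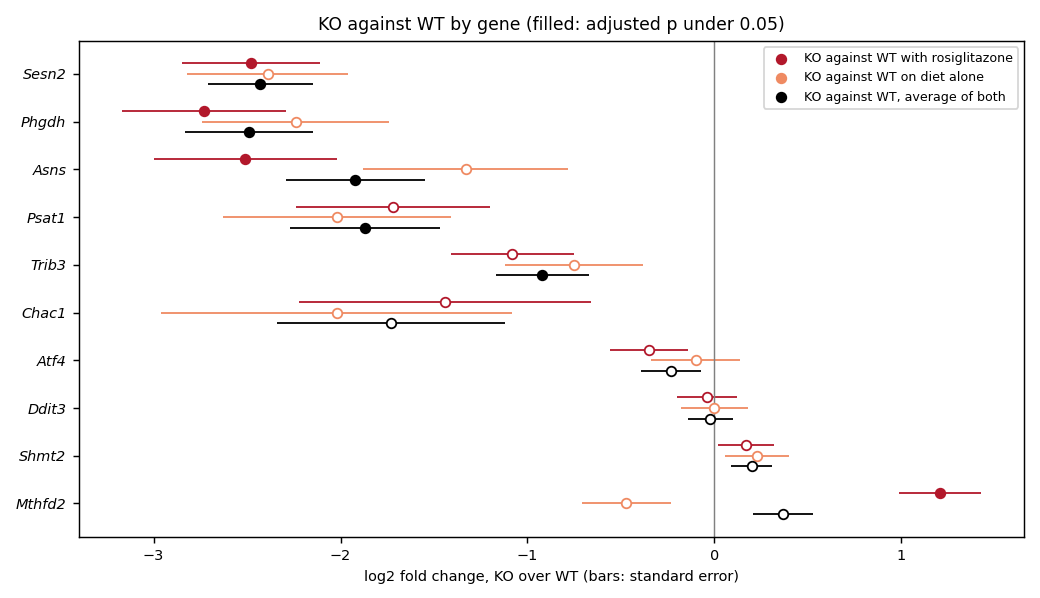
Log2 fold change of KO over WT (horizontal axis) for each gene with rosiglitazone, on diet alone, and averaged over both; bars are standard errors and filled points have an adjusted p under 0.05. Sesn2 and Phgdh lie between -2.73 and -2.24 in all 3, while Mthfd2 lies at 1.21 with rosiglitazone and at -0.47 on diet.

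Between rosiglitazone and diet within a genotype, edgeR called 0 of the 10 genes. Within KO, 0.0148% of all genes were called, 0.0111% higher and 0.00371% lower, and 8.36% had an unadjusted p under 0.05. Mthfd2 was at 12.1 ± 2.24 CPM with rosiglitazone and 7.17 ± 1.78 CPM on diet (SD, n = 3 and 2). It was 1 of the 10 with an unadjusted p under 0.05 (log2 fold change 0.76 ± 0.25, adjusted p = 0.434), and DESeq2 and limma-voom called 0. Within WT, where 2.14% of all genes were called, 1.55% higher and 0.593% lower, Mthfd2 was at 5.25 ± 0.648 CPM with rosiglitazone and 9.96 ± 1.77 CPM on diet (SD, n = 3 each; log2 fold change -0.93 ± 0.22, adjusted p = 0.0612). Asns was at 71.3 ± 9.46 CPM with rosiglitazone and 31.9 ± 18 CPM on diet in WT (1.16 ± 0.47, 0.237). Mthfd2 and Asns were the 2 of 10 with an unadjusted p under 0.05, as had 17.4% of all genes. In WT on diet, replicate 1 held 52.7 CPM of Asns and 40243 CPM of summed adipocyte markers. Replicates 2 and 3 held 22.8 and 20.2 CPM of Asns and 16007 and 12790 CPM of the markers. With adipocyte, B cell and macrophage marker covariates, edgeR gave Asns 0.30 (adjusted p = 0.361), 0.72 (0.0204) and 2.00 (0.0249). The cause was not tested. DESeq2 called 1 of the 10 and limma-voom 6, of which 5 were higher and 1 lower with rosiglitazone. The WT groups exchange places under the titles, and each of these signs with them.

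The interaction asks whether the response to rosiglitazone differed between genotypes, and 0.104% of all genes were called for it, 0.0853% higher and 0.0185% lower. By edgeR 0 of the 10 passed, and Mthfd2 alone had an unadjusted p under 0.05 (1.68 ± 0.33, unadjusted p = 0.000462, adjusted p = 0.114). DESeq2 called Mthfd2 and limma-voom called 0. With WT treatments from the titles, Mthfd2 was at -0.17 ± 0.33 by edgeR (adjusted p = 0.848). Without replicate 2 of KO on diet it passed (1.96, adjusted p = 0.044). Summed over 16 cell cycle genes, KO libraries held 335 to 416 CPM with rosiglitazone and 187 to 239 CPM on diet, and WT libraries 172 to 181 CPM with rosiglitazone and 206 to 297 CPM on diet. As for Mthfd2, KO with rosiglitazone was highest and WT with rosiglitazone lowest, and 14 of the 16 were higher in KO than in WT in the rosiglitazone groups. In the genotype average 4 of the 16 were higher, with examples in Mcm6 (0.77 ± 0.15), which belongs to the replicative helicase, and Bub1 (0.97 ± 0.22), a spindle checkpoint kinase, which was called in 8 of 11 fits without 1 library, not without replicate 3 of KO with rosiglitazone, replicate 2 of KO on diet or replicate 1 of WT with rosiglitazone. Across the 11 libraries Mthfd2 had a Pearson r of 0.88 with that sum, as a description of libraries that share groups and tissue makeup. The part of dividing cells in the level of Mthfd2 was not tested.

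Per length, on the TPM scale, the 10 genes stood in different orders in the genotypes. In KO libraries Atf4 averaged 27.8 ± 10.3 TPM, Phgdh 20.6 ± 10.4 TPM and Psat1 13 ± 5.63 TPM, with Shmt2 at 13 ± 4.20 TPM (SD, n = 5). In WT libraries Phgdh led at 125 ± 49.3 TPM, before Psat1 at 48.3 ± 16.6 TPM, Atf4 at 38 ± 6.99 TPM and Asns at 31.8 ± 14 TPM (SD, n = 6). Ddit3 averaged 9.66 ± 3.87 TPM in KO and 11.4 ± 1.75 TPM in WT. Next in KO came Mthfd2 at 7.80 ± 2.27 TPM and Asns at 7.6 ± 5.33 TPM. The lowest in KO were Chac1 at 2.59 ± 2.49 TPM, Sesn2 at 2.30 ± 0.808 TPM and Trib3 at 2.22 ± 0.770 TPM. In WT, Sesn2 averaged 14.2 ± 4.66 TPM, Shmt2 10.7 ± 2.07 TPM, Chac1 9.04 ± 3.98 TPM, Mthfd2 6.38 ± 3.71 TPM and Trib3 4.57 ± 0.856 TPM. Neighbours in either order differed by less than the larger of their SDs, except Phgdh from Psat1 and Asns from Sesn2 in WT.

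Levels of the 5 lower genes ran parallel to those of adipocyte markers. Across the 11 libraries, the Pearson r of log2 CPM with the summed mature adipocyte markers was 0.98 for Asns, 0.97 for Psat1, 0.96 for Sesn2, 0.94 for Phgdh and 0.91 for Trib3. It was 0.80 for Chac1, 0.71 for Atf4, 0.41 for Ddit3, -0.48 for Shmt2 and -0.61 for Mthfd2. These are descriptions over libraries that fall into the genotype groups. Among the genes themselves, r was 0.97 between Phgdh and Sesn2 and 0.94 between Asns and Psat1. The 5 other genes whose levels were most like those of Asns were Lzts2, Tspan12, Aqp7, Ehd2 and Scp2, each with r of 0.99. Aqp7 is the glycerol channel of adipocytes. All 5 were lower in KO, with Scp2 as an example (log2 fold change -1.66 ± 0.32). They were picked for their likeness to Asns, itself lower in KO, so their direction was set by that choice.

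Divided by the adipocyte marker sum, the order of the genotypes changed. Asns then amounted to 2.29, 2.02 and 1.77 per mille of the marker CPM in KO with rosiglitazone and 2.42 and 1.92 in KO on diet, against 1.72, 1.89 and 1.72 in WT with rosiglitazone and 1.31, 1.43 and 1.58 in WT on diet. On this scale the genotypes overlapped, with most KO libraries above WT. Sesn2 was at 1.53, 1.47 and 1.54 in KO with rosiglitazone and 1.03 and 2.56 in KO on diet, against 1.17, 1.62 and 1.08 in WT with rosiglitazone and 1.61, 2.18 and 1.75 in WT on diet. Phgdh likewise ranged from 4.8 to 15.1 in KO and from 5.42 to 9.25 in WT. For Sesn2 and Phgdh too the genotypes overlapped on this scale, as they did for Psat1, at 3.29 to 5.62 in KO and 2.32 to 3.66 in WT. Trib3 was higher in KO without overlap, at 0.503 to 1.33 in KO and 0.201 to 0.379 in WT. So were Atf4, at 6.44 to 14.2 in KO and 1.61 to 3.2 in WT, and Ddit3, at 1.06 to 2.59 in KO and 0.213 to 0.612 in WT. Shmt2 was likewise higher in KO without overlap, while Chac1 and Mthfd2 overlapped. The marker sum was lower in every KO library than in any WT library. A gene with level CPM, such as Ddit3 (log2 fold change -0.02), is therefore higher in KO on this scale through the division itself.

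**Figure D3:**
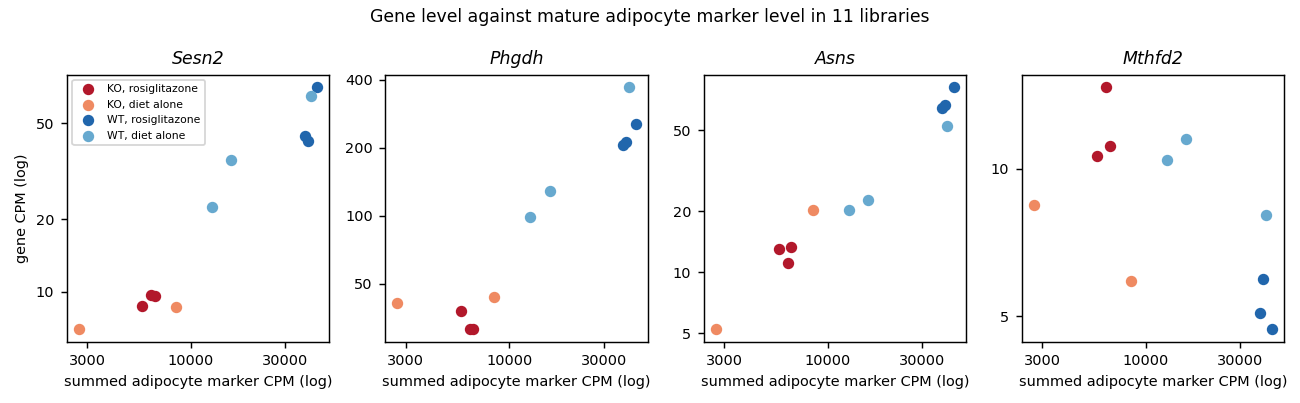
CPM of Sesn2, Phgdh, Asns and Mthfd2 (vertical axis, log scale) against the summed CPM of 15 mature adipocyte markers (horizontal axis, log scale), with 1 point per library coloured by group. Asns follows the markers over both genotypes (r = 0.98), and Mthfd2 runs the other way (r = -0.61).

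With the adipocyte marker sum as a covariate, an alternative added after the data were seen, edgeR called 0 of the 10 in the genotype average. The values were -0.96 ± 0.45 for Sesn2 (adjusted p = 0.205) and -0.74 ± 0.58 for Phgdh (0.481). For Asns, Psat1 and Trib3 the sign turned, to 0.41 ± 0.25 (0.327), 0.75 ± 0.26 (0.0858) and 0.32 ± 0.45 (0.712). In the rosiglitazone groups the same covariate gave 1.18 ± 0.29 for Psat1, which was then higher in KO (adjusted p = 0.0367), and 0.43 ± 0.38 for Mthfd2 (0.552). Such a fit takes the relation to the markers from variation within groups, such as 2725 to 8401 CPM in KO on diet. It then carries that relation across the gap between genotypes, whose marker sums do not overlap. In the genotype average, the SE was smaller than without the covariate for Asns and Psat1, and larger for Sesn2, Phgdh and Trib3. A covariate of macrophage markers, also added later, left Sesn2 (-2.78 ± 0.65, 0.038), Phgdh (-2.89 ± 0.75, 0.0458), Asns (-3.79 ± 0.60, 0.0223) and Psat1 (-3.40 ± 0.78, 0.0383) lower and took the call from Trib3 (-1.28 ± 0.56, 0.139). With a B cell covariate the same 5 genes were called. Adipocyte content and genotype cannot be told apart in these libraries.

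**Figure D4:**
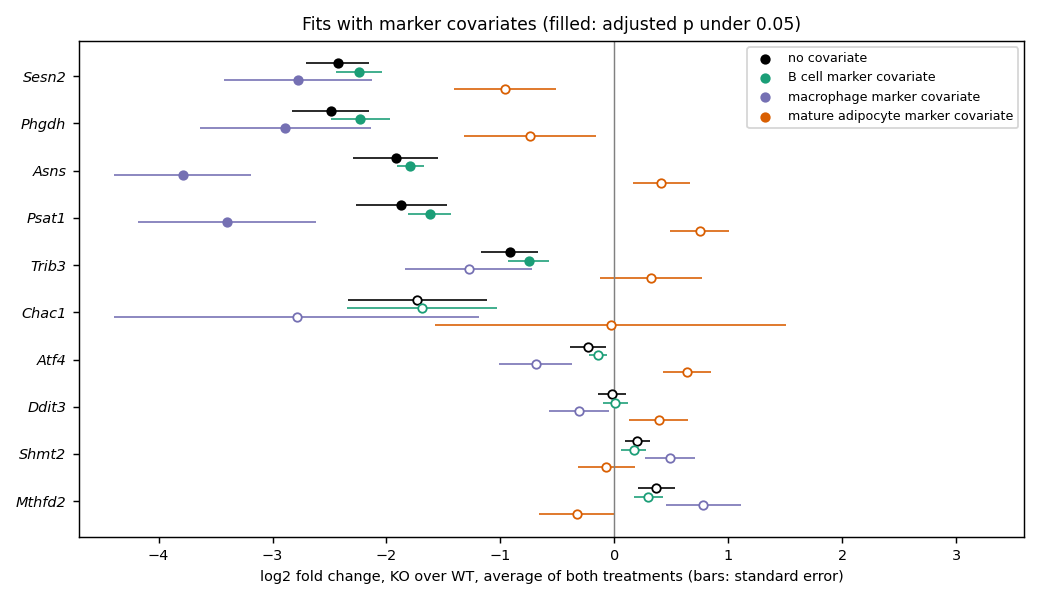
Log2 fold change of KO over WT averaged over treatments (horizontal axis) for each gene in fits with no covariate and with a B cell, macrophage or mature adipocyte marker covariate; bars are standard errors and filled points have an adjusted p under 0.05. Filled are 5 genes without a covariate and 0 with the adipocyte covariate, where Asns lies at 0.41.

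Genes around these 10 were read in lists. Over all tested genes, 8.20% were lower and 4.57% higher in the genotype average. Of the 29 further enzymes and carriers of serine, glycine and folate metabolism, 7 were lower and 1 higher in KO in the genotype average, with a median log2 fold change of -0.19. Aldh1l1, the cytosolic formyltetrahydrofolate dehydrogenase, showed the largest difference. It ranged from 2.72 to 7.44 CPM in KO and from 48.0 to 161 CPM in WT, without overlap (log2 fold change -3.76 ± 0.40, adjusted p = 0.000931). It was also lower in KO within the rosiglitazone groups (-3.37 ± 0.49, 0.00326) and on diet (-4.15 ± 0.61, 0.0381). Both Gldc (-1.94 ± 0.48, 0.0273) and Gcsh (-1.62 ± 0.37, 0.0212), parts of the glycine cleavage system, were lower. Gldc kept its call in 5 of 11 fits without 1 library and lost it without any KO library with rosiglitazone, replicate 2 of KO on diet, or replicate 1 or 2 of WT with rosiglitazone (adjusted p up to 0.0683). Gcsh kept it in 8 of 11 and lost it without replicate 3 of KO with rosiglitazone, replicate 2 of KO on diet or replicate 2 of WT with rosiglitazone (up to 0.0806). Lower too were Sfxn1 (-1.03 ± 0.18, 0.00647), a mitochondrial serine carrier, and Mat2a (-0.89 ± 0.19, 0.0146), which makes S-adenosylmethionine. Mat2a had an adjusted p of 0.0504 without replicate 2 of KO on diet.

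Sfxn1 and the folate carrier gene Slc19a1 also answered to treatment in WT. Sfxn1 had 248, 268 and 211 CPM in WT with rosiglitazone and 101, 73.4 and 87.1 CPM in WT on diet (1.47 ± 0.23, adjusted p = 0.0211). Slc19a1 had 31.0, 39.6 and 31.0 CPM in WT with rosiglitazone and 17.4, 12.7 and 11 CPM in WT on diet (1.31 ± 0.26, 0.0359). Neither pair of groups overlapped, and 13.4% of all genes were higher with rosiglitazone in WT without overlap. In KO tissue Sfxn1 was at 63.5, 61.8 and 62.5 CPM with rosiglitazone and 106 and 56.8 CPM on diet. The interaction missed the threshold for both, at -1.85 ± 0.34 (adjusted p = 0.0969) for Sfxn1 and -1.95 ± 0.38 (0.104) for Slc19a1. By titles the 2 treatment differences in WT turn round.

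Among 16 other known ATF4 targets, 6 were lower and 2 higher, with a median of -0.48. The lower ones included Cbs (-3.29 ± 0.44, 0.00204) and Cth (-2.83 ± 0.49, 0.00657), the enzymes that turn homocysteine into cysteine. Both were scarce: Cbs had 3 to 6 reads per KO library and 30 to 188 per WT library, and Cth averaged 0.718 CPM in KO and 4.32 CPM in WT. Also lower were Gpt2 (-1.93 ± 0.43, 0.0188), the mitochondrial alanine transaminase, and Ndrg1 (-1.03 ± 0.18, 0.00657). Without replicate 2 of KO on diet the adjusted p of Gpt2 was 0.062. The 2 higher were Got1 (0.92 ± 0.21, 0.0193), the cytosolic aspartate transaminase, whose KO libraries all lay above WT, and Aldh18a1 (0.57 ± 0.10, 0.0077), which begins proline synthesis.

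Of 12 amino acid transporters, 3 were lower and 0 higher, with a median of -0.50. Slc1a5, the carrier of glutamine and other neutral amino acids, was at 249.7 to 492 CPM in KO and 735 to 2449 CPM in WT without overlap (-2.11 ± 0.31, 0.00312). Slc1a4, a carrier of serine and alanine, fell by 1.75 ± 0.40 on the log2 scale (0.0198), and Slc43a1 by 0.97 ± 0.24 (0.0281). Slc1a4 was called in 8 of 11 fits without 1 library, not without replicate 1 or 3 of KO with rosiglitazone or replicate 2 of KO on diet (adjusted p up to 0.0782). Slc43a1 was called in 6 of 11, not without any of those 3 libraries or replicate 1 or 3 of WT with rosiglitazone (up to 0.0895). In the rosiglitazone groups 6 of the 12 were lower and 2 higher in KO. Higher there were Slc7a5 (1.26 ± 0.25, 0.0107), the leucine exchanger, and Slc7a1 (0.82 ± 0.20, 0.0259), a carrier of arginine and lysine. Slc7a5 was also lower with rosiglitazone than on diet in WT, just under the threshold (-1.13 ± 0.25, 0.0497), and by titles this sign turns. By titles KO with rosiglitazone, at 12 to 15.7 CPM of Slc7a5, is set against WT libraries with 10.8 to 15.1 CPM. For Slc7a1 the same libraries held 41 to 41.8 CPM in KO and 29.4 to 36.2 CPM in WT.

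Upstream of ATF4, 0 of 10 kinases and regulators of the integrated stress response passed the edgeR test, with log2 fold changes from -0.48 to 0.26 and 3 of 10 lower at an unadjusted p under 0.05. DESeq2 and limma-voom also called 0. The 2 with the smallest p were Eif2b5 (-0.45 ± 0.16, adjusted p = 0.0896) and Eif2ak1 (-0.35 ± 0.14, 0.144), the heme-regulated kinase. In the rosiglitazone groups edgeR called 0 of these 10, DESeq2 2 lower and limma-voom 4 lower. Among 8 partners and related stress factors, 1 was higher in the genotype average. That was Atf3 (2.41 ± 0.34, 0.00291), a factor of the same family, with 7.95 to 48.2 CPM in KO and 2.84 to 12.8 CPM in WT. In the rosiglitazone groups its log2 fold change was 3.87 ± 0.49 (0.00173), without overlap, and on diet 0.95 ± 0.49 (0.552). Of 20 cytosolic tRNA synthetases 1 was lower in the genotype average, Mars, by 0.55 ± 0.12 (0.0194). Mars was called in 8 of 11 fits without 1 library, not without replicate 3 of KO with rosiglitazone, replicate 2 of KO on diet or replicate 2 of WT with rosiglitazone (up to 0.066). In the rosiglitazone groups edgeR and DESeq2 each called 2 of the 20 lower, and limma-voom 10 lower and 1 higher. There edgeR called 9.50% of all genes lower, and limma-voom called 5172 of 26960 lower. Among 18 other endoplasmic reticulum stress genes, 1 was higher in the genotype average, the chaperone cofactor gene Sdf2l1 (0.75 ± 0.17, 0.0215), and 1 lower, Edem1 (-0.72 ± 0.21, 0.0461). Sdf2l1 was called in 7 of 11 fits without 1 library, not without replicate 1 of KO with rosiglitazone, replicate 1 of KO on diet, or replicate 1 or 2 of WT with rosiglitazone (up to 0.0568). Edem1 was called in 4 of 11, not without any of the 6 libraries with rosiglitazone or replicate 2 of KO on diet (up to 0.145).

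Around Sesn2, 3 of 10 other sestrin and amino acid sensing genes were lower and 0 higher. Castor1, the arginine sensor of mTORC1, was at 5.19 to 7.45 CPM in KO and 14 to 45.3 CPM in WT without overlap (-1.72 ± 0.30, 0.00703). Nprl2 (-0.45 ± 0.11, 0.0251), a part of GATOR1, and Mios (-0.43 ± 0.11, 0.0325), a part of GATOR2, differed less, and each was called in 5 of 11 fits without 1 library. Of 8 glutathione genes 1 was lower, Chac2 (-0.84 ± 0.20, 0.0224), a relative of Chac1, and it was called in 9 of 11 fits without 1 library, not without replicate 2 of KO on diet (0.08) or replicate 3 of WT with rosiglitazone. With the adipocyte covariate 2 of the 29 serine, glycine and folate genes were still lower and 5 were higher, and of the 16 other ATF4 targets 0 were lower and 1 higher. The same covariate gave 9 higher and 0 lower of the 18 endoplasmic reticulum stress genes, 5 higher and 0 lower of the 8 partners and stress factors, and 3 higher and 1 lower of the 8 glutathione genes. It gave 1 higher and 0 lower of the 10 stress response kinases and regulators, 1 higher and 1 lower of the 20 tRNA synthetases, and 0 higher and 1 lower of the 12 transporters. Over all genes it called 2187 higher and 1045 lower. Castor1 was then at 0.11 (0.902) and Mat2a at 0.13 (0.737).

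**Figure D5:**
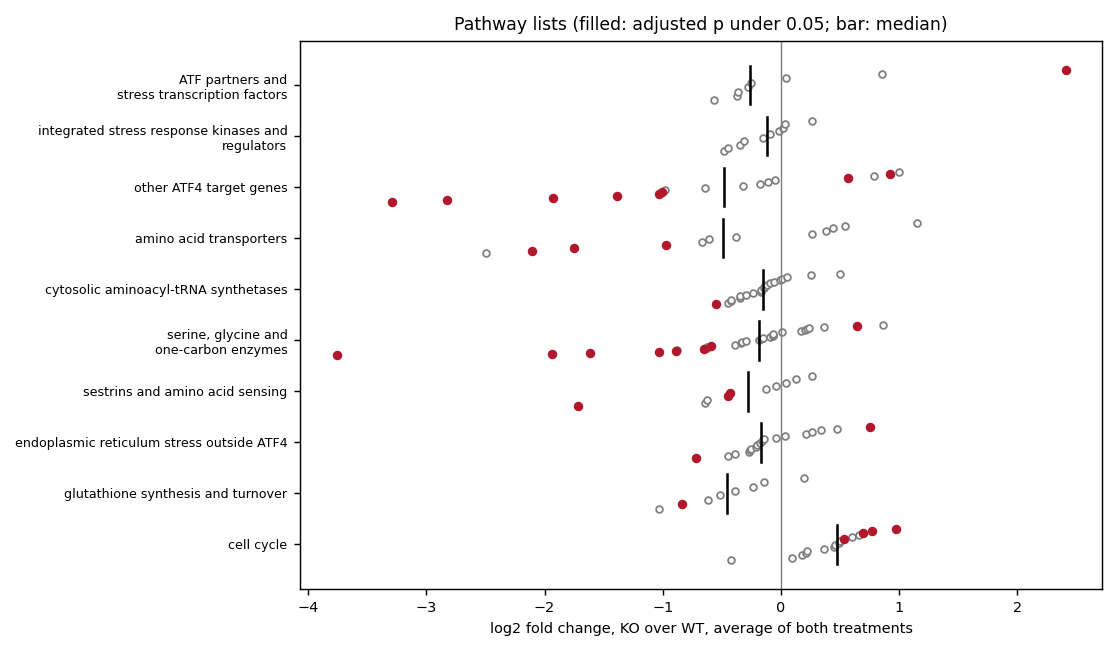
Log2 fold change of KO over WT averaged over treatments (horizontal axis) for every tested gene of 10 lists around the named genes; filled points have an adjusted p under 0.05 and bars are list medians. Serine, glycine and one-carbon enzymes reach from -3.76 to 0.86, while the stress response kinases stay between -0.48 and 0.26 with 0 filled.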

How the data were processed

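RNA was extracted with Trizol and made into Nextera XT libraries, per the labels' protocols. Salmon, edgeR, mm10 and GRCm38 are named without versions, per the submitters' processing notes. The authors' deposited tables hold an estimated count (expected count) and a TPM value per transcript, per the file headers. Of 132288 transcripts, 131892 (99.7%) matched GENCODE M21 (GRCm38); the other 396, with at most 0.144% of the reads in any library, were dropped. Gene totals of the estimated counts were rounded to whole numbers, and CPM are these after TMM scaling. Salmon apportions reads that fit several paralogs. Strand is not stated, so overlapping genes cannot be told apart. No libraries were identical.

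The main test was edgeR 4.0.16's robust quasi-likelihood test (R 4.3.3) in 1 model of all 11 libraries with a mean per group and the default filter, adjusted by Benjamini and Hochberg over 26960 genes at a threshold of 0.05. The error given with a log2 fold change is its SE. The 6 contrasts share libraries. Correlations used log2(CPM + 0.5). The test was checked on simulated counts. Alternatives used DESeq2 1.42.0, limma 3.58.1, other scaling, filters and gene sets, TPM, the replicate block, WT titles, covariates, and each library left out. The 10 genes, the lists, the tests and the naming rule were chosen with earlier results of these data known. The rule named the 10 genes, up to 6 genes per list called in any contrast by smallest p, otherwise the 2 with the smallest p, and the 5 genes most correlated with Asns among those averaging 1 or more in log2 CPM. Coordinates of promoters are RefSeq's on GRCm38.p6.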

Additional observations from a re-analysis of the deposited data

Results flagged for a closer look

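Mthfd2 lay in opposite orders by treatment in the genotypes. In KO, all 3 libraries with rosiglitazone lay above both on diet, while in WT all 3 with rosiglitazone lay below all 3 on diet. The difference between the responses was 1.68 ± 0.33 (SE, log2) and missed the threshold over all genes by edgeR (adjusted p = 0.114); DESeq2 gave 1.70 with an adjusted p of 0.000635. With WT treatments from the titles the WT libraries exchange places, and the difference was -0.17 ± 0.33 (edgeR adjusted p = 0.848). By limma on log2(TPM + 1) it was 0.81 (adjusted p = 0.441), where the median of all genes was -0.46. The response in KO alone was then -0.11 (0.846), where the median of all genes was -0.60. By edgeR these 2 medians were 0.00 and -0.01.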

How the results depend on the processing

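In all, 1600 values of the 10 genes were compared under 27 alternatives, 11 of which leave out 1 library. Of these, 1502 stayed on their side of the threshold, 68 gained a call and 25 lost it. Another 5 changed sign with a call in either fit. The 1502 include 1293 pairs uncalled in both fits, of which 139 had another sign. For named pathway genes the counts kept, gained, lost and changed in sign were 962, 47, 176 and 16, by the same rule. Causes were not tested. With 2 or 3 libraries a group, calls within one treatment rest on few samples, and scarce genes such as Cbs on few reads. The covariates of mature adipocytes and macrophages were added after seeing the data.

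For the genotype average, 3442 of all genes were called, against 5166 by DESeq2, 2001 and 1921 on log2(TPM + 1) and log2(TPM + 0.1), 1900 without the muscle-rich libraries and 6352 with the B cell covariate. With the adipocyte covariate 0 of the 10 genes were called. These changed sign, with a call in the main or the covariate fit: Asns 0.41, Psat1 0.75, Trib3 0.32, Gpt2 0.42, Slc1a4 0.65, Mars 0.00, Gars 0.92, Slc19a1 1.05, Mat2a 0.13, Gldc 0.94, Gcsh 0.77, Castor1 0.11 and Edem1 0.35. Of these, Gars (-0.42, adjusted p = 0.219) and Slc19a1 (-0.07, 0.835) had no call in the main edgeR fit. Sdf2l1 was at -0.00 with the macrophage covariate. The titles gave Rptor a p of 0.09 at -0.41.

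For KO against WT on diet (37 genes), DESeq2 called 736, limma-voom 6, no filter 75, log2(TPM + 1) 83, coding genes 74, coding transcripts 90, the compared groups alone 0, titles 2886, the fit without muscle-rich libraries 2, and the B cell, adipocyte and macrophage covariates 2040, 3786 and 89. Of the 10 genes, DESeq2 called 3, no filter 1, coding genes 1, coding transcripts 1, titles 4 and the B cell covariate 4.

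For KO against WT with rosiglitazone (4037), limma-voom called 9182, the compared groups alone 8461, titles 624, the fit without muscle-rich libraries 1560 and the adipocyte covariate 1989. Of the 10 genes, titles left 2 called and the adipocyte covariate 1, with Asns at 0.21 and Psat1 at 1.18.

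For rosiglitazone in KO (4), DESeq2 called 364, limma-voom 0, no filter 20, the filter of 1 CPM 2, log2(TPM + 1) 254, log2(TPM + 0.1) 49, coding genes 11, coding transcripts 16, the compared groups alone 0, the fit without muscle-rich libraries 1, and the B cell, adipocyte and macrophage covariates 521, 1362 and 278. The adipocyte covariate called 1 of the 10 genes.

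For rosiglitazone in WT (578), DESeq2 called 1981, limma-voom 7325, log2(TPM + 1) 48, log2(TPM + 0.1) 18, coding genes 947, the compared groups alone 313, the fit without muscle-rich libraries 1, and the B cell, adipocyte and macrophage covariates 2060, 1794 and 1848. Of the 10 genes, DESeq2 called 1, limma-voom 6, coding genes 1, and the B cell and macrophage covariates 2 and 2. Titles reversed Aldh18a1 to 0.78, Slc7a5 to 1.13, Mars to -0.89, Sfxn1 to -1.47 and Slc19a1 to -1.31.

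For the interaction (28), DESeq2 called 531, limma-voom 61, no filter 47, the filter of 1 CPM 44, log2(TPM + 1) 5, log2(TPM + 0.1) 5, coding genes 52, titles 154, the fit without muscle-rich libraries 1, and the B cell, adipocyte and macrophage covariates 483, 765 and 514. DESeq2 and the B cell, adipocyte and macrophage covariates each called 1 of the 10 genes.

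Leaving out 1 library gave 1847 to 5068 genes for the genotype average (3 to 5 of the 10), 2 to 250 on diet (0 to 2), 1498 to 5919 with rosiglitazone (3 to 6), 1 to 145 for rosiglitazone in KO (0), 18 to 2779 for rosiglitazone in WT (0 to 3) and 1 to 348 for the interaction (0 to 1). Rptor ranged from -0.48 to -0.33.

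As deviations from group means, libraries of the same replicate number correlated at -0.419 to 0.608, and those of other numbers at -0.608 to 0.419. With 2 or 3 libraries a group, these values cannot show whether the numbers pair libraries. The replicate block gave 3178 genes for the genotype average, 1 on diet, 3444 with rosiglitazone, 1 and 430 for rosiglitazone in KO and WT, and 1 for the interaction, and changed no call of the 10 genes in the genotype average. A fit of the compared groups alone does not exist for the genotype average and the interaction.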
